A study of Salvelinus alpinus with 144 samples.

Results

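The 100 mRNAs described here are those that tracked the microRNA miR-34a most closely in Arctic charr (Salvelinus alpinus) embryos at 150 τs. They were chosen by that correlation itself. Rows of the mRNA count table with an identifier starting with LOC and a mean of at least 1 CPM (reads scaled to library size, with TMM normalisation) at 150 τs were eligible. The 100 with the highest Pearson correlation of log2(CPM + 0.1) with that of dre-miR-34a, the zebrafish entry of the microRNA, over the 36 embryos at 150 τs were taken. They are 100 of 24750 eligible rows and of 42433 rows in all. Everything measured at 150 τs was used by this choice and is given as a description. The embryos at 200 τs were not used by it, and the relation was tested there. They come from the same families, so they are siblings of the embryos at 150 τs.

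MicroRNAs of the miR-34 family are short RNAs that lower the translation and stability of mRNAs carrying matching sites. In mammals miR-34a is transcribed under the control of p53, the protein that halts the cell cycle or triggers cell death after DNA damage. Cyclin G1, the ubiquitin ligase MDM2 and the ribosomal protein S27-like protein are among the other products of p53-controlled genes in mammals. An mRNA that rises and falls together with a microRNA is therefore not by that pattern one of its targets.

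The embryos came from crosses of 2 morphs of the same lake, the small benthic (SB) and the planktivorous (PL) charr, written as mother x father: SBxSB, SBxPL, PLxSB and PLxPL. Each of the 4 cross-types had 3 families of wild-caught parents reared in a common garden, and 3 siblings per family (individuals A, B and C) were sampled whole at 150 τs, when the pharyngeal skeleton starts to form, and at 200 τs, when most head cartilage is present. The unit τs is a relative age scaled to the time that a pair of somites takes to form. Both RNA types were sequenced from each of the 72 embryos, so an mRNA and a small RNA library were paired by family and letter. The letter is also the sequencing batch in the labels, and the study's methods describe 3 such batches for the small RNA. A whole embryo mixes all tissues, so more cells of a type and more RNA per cell cannot be told apart.

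The mRNA libraries held 11969598 to 17133123 counted reads and the counts of the small RNA libraries summed to 13928940 to 58027109. The small RNA sums run over miRBase entries of all species, under several of which 1 read can be counted, so they are not numbers of reads and the CPM of a microRNA is relative to them. One PLxSB small RNA library at 200 τs (family H1512, individual B) summed to 127822 and held no read of miR-34a, and the study discarded it, so 35 embryos at 200 τs entered each relation with the microRNA. One SBxSB family, H1504, stood apart in miR-34a and in the 100 mRNAs at both ages, and the main results are therefore also given without it. The LOC identifiers carry no names in the count table. Names for 8 of the 100 were taken from the list of genes that the study selected on these same embryos, which is no independent evidence of what they do, and the other 92 are given by identifier.

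dre-miR-34a was a rare microRNA in these libraries, with 1527 reads over all of them. At 150 τs the 33 embryos of the other 11 families had 1 to 31 reads each, with a lowest level of 0.0365 CPM, a median of 0.328 and a highest of 0.627. In family H1504 individual A had 4 reads and 0.232 CPM (exact Poisson 95% interval 0.0632 to 0.593). Individual B had 76 reads and 4.31 CPM (3.40 to 5.40). Individual C had 283 reads and 4.70 CPM (4.17 to 5.28). Siblings B and C thus lay above all other embryos and outside the intervals of their sibling A, which lay inside the range of the other families. These intervals cover counting error only.

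At 200 τs the same family was again high, in other individuals. The 32 embryos of the other families ranged from 0.202 to 0.689 CPM with a median of 0.391. H1504 individual A had 1.53 CPM (1.18 to 1.94), individual B 0.680 (0.462 to 0.965) and individual C 2.63 (2.15 to 3.19). Individuals A and C lay above all others and B at the top of their range. Letters name different embryos at the 2 ages. Outside H1504 the median of miR-34a was highest in letter C, a sequencing batch, at both ages. For letters A, B and C it was 0.326, 0.265 and 0.399 CPM at 150 τs. At 200 τs it was 0.351, 0.360 and 0.513 CPM. The main fit of the mRNAs on miR-34a has no batch term, and the counts with that term are given at the end.

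**Figure D1:**
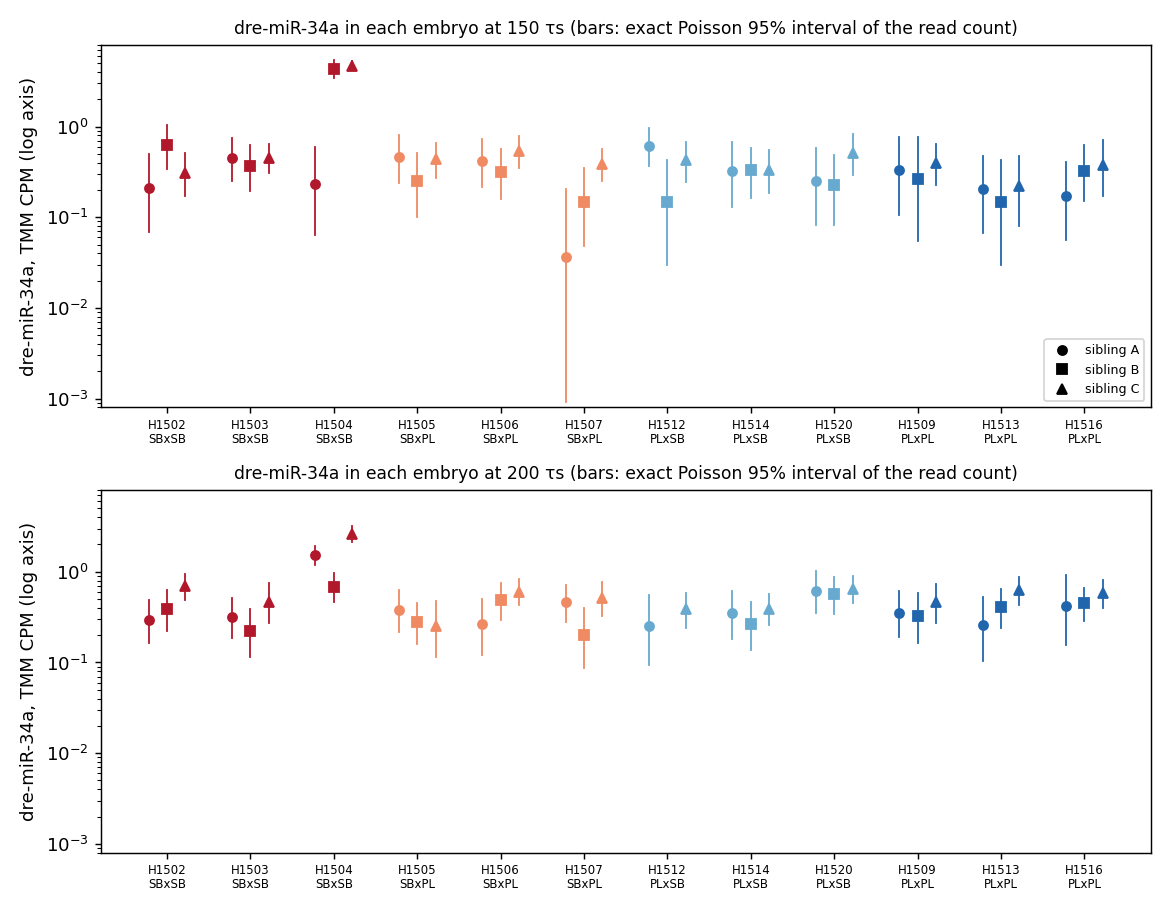
Level of dre-miR-34a (TMM CPM, log axis) in each embryo by family, at 150 τs above and 200 τs below, with the exact Poisson 95% interval of its read count as a vertical line; colours are cross-types and shapes the siblings A, B and C. Siblings B and C of family H1504 at 150 τs (4.31 and 4.70 CPM) and A and C at 200 τs (1.53 and 2.63 CPM) stand above all other embryos.

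The other miR-34 entries gave no separate measurement. Of 264 entries of the family from all species, 50 had at least 10 reads and these held 4 distinct sets of counts, 47 of them the same one with 1511 reads in all. The zebrafish entries dre-miR-34b, dre-miR-34c-5p and dre-miR-34c-3p had no read in any library. The 3p entry gmo-miR-34-3p had 42 reads in all, of which 12 were in H1504 C at 150 τs and 0 in H1504 B.

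The level of miR-34a at 200 τs did not pass the test between any of the 5 pairs of cross-types compared. The fit took the spread of miR-34a from the embryos of both ages. That spread includes siblings B and C of H1504 at 150 τs, whose high values carried the choice of the mRNAs. The test is therefore not independent of the choice, and no absence of a difference can be read from it. SBxSB embryos had 0.802 ± 0.791 CPM (mean ± SD, n = 9), SBxPL 0.383 ± 0.140 (n = 9), PLxSB 0.434 ± 0.155 (n = 8) and PLxPL 0.432 ± 0.117 (n = 9). The log2 difference between SBxSB and PLxPL was 0.79 ± 0.40 (SE; adjusted p = 0.211, edgeR's quasi-likelihood test with batch as a term). Without family H1504 the difference was -0.21 ± 0.23 (SE; adjusted p = 0.641, the same test). In the other 4 comparisons the adjusted p ranged from 0.473 to 0.986. Of the 5, 3 had an unadjusted p below 0.05, those between SBxSB and each other cross-type.

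At 150 τs the correlations of the 100 mRNAs with miR-34a ran from 0.590 to 0.880 with a median of 0.642. Of the 100, 8 had r of at least 0.8, 19 lay between 0.7 and 0.8, 59 between 0.6 and 0.7 and 14 below 0.6. The limit falls in a dense stretch: LOC112071731 (r = 0.5898) and LOC112078147 (0.5897) are the last 2 inside and LOC111969678 (0.5884) and LOC111966172 (0.5878) the first 2 outside. These correlations rest on 2 embryos. In 85 of the 100, H1504 B and C were the 2 highest of the 36 embryos. Without family H1504 the median r of the same rows was 0.198 over 33 embryos, beside -0.0196 for all eligible rows, and 7 of them would be among the 100 highest. Spearman's rho over the 36 embryos had a median of 0.308. Each of the 36 embryos had its own libraries, but they fall into 12 families and 3 batches.

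The rise in H1504 B and C was large in few of the mRNAs and small in most. Both siblings were at least 2-fold above the median of the other 33 embryos in 35 of the 100, and at least 4-fold above it in 13. Sibling A stayed inside the range of the other families in 95. The members ranged in mean level from 1.11 to 235 CPM at 150 τs with a median of 12.1, close to the median of 10.5 over all eligible rows. The fewest reads of a member in a library were 3.

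Of the leading mRNAs, 2 carry the name of TNF receptor superfamily member 19, a cell surface receptor of the tumour necrosis factor receptor family that lacks a death domain. LOC111951066 ranged from 2.62 to 7.78 CPM in the 33 embryos of the other families at 150 τs, with a median of 4.36. H1504 A had 2.87, B 62.1 and C 56.1 CPM, so B and C were 14.3-fold and 12.9-fold above that median while A was at the low end of the range. At 200 τs the other families ranged from 2.09 to 5.63 CPM with a median of 3.18, and H1504 A, B and C had 21.0, 5.30 and 25.7 CPM. The receptor was again high in the 2 siblings with the most miR-34a, and inside the range in sibling B.

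LOC111980339, named as like that receptor, was lower and moved in the same siblings. The other families had 0.428 to 4.26 CPM at 150 τs (median 1.14), and H1504 A, B and C had 1.13, 31.8 and 35.8 CPM. At 200 τs the other families had 0.387 to 1.69 CPM (median 0.847), and H1504 A, B and C had 9.89, 1.64 and 11.5 CPM. Reads of near-identical copies may be split between such rows by the counting, so how far the pair is independent is uncertain, as for the other rows of one name below.

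Cyclin G1 is a cell cycle regulator that acts with protein phosphatase 2A and, in mammals, on the MDM2 protein. The cyclin-G1-like row LOC112069817 had the highest correlation of all at 150 τs (r = 0.880). Its level was 54.3 to 86.7 CPM in the other families at 150 τs (median 65.0), and 60.0, 348 and 304 CPM in H1504 A, B and C. At 200 τs it was 54.1 to 91.1 CPM in the other families (median 66.4), and 182, 83.1 and 197 CPM in H1504 A, B and C. Cyclin-G1-like mRNA was thus nearly even over 11 families and raised in 2 siblings of the twelfth at each age.

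Both rows named 40S ribosomal protein S27-like moved the same way. LOC111976118 had 6.73 to 21.8 CPM in the other families at 150 τs (median 13.0) and 12.2, 109 and 49.8 CPM in H1504 A, B and C. At 200 τs the other families had 10.1 to 29.1 CPM (median 14.3) and H1504 45.5, 18.6 and 56.3 CPM. LOC111952141 was lower, with a median of 6.07 CPM in the other families at 150 τs (4.58 to 9.05) and 5.49, 28.5 and 18.6 CPM in H1504. At 200 τs its H1504 values were 10.3, 8.02 and 17.1 CPM beside 4.91 to 10.9 in the others, so that C alone lay above their range. In mammals the S27-like gene is a paralogue of the ribosomal protein S27 gene, and which of the pair these rows match is not known from the table. Sums were taken at 150 τs over 18 rows whose symbols start with rpl or rps, most of them for proteins of the cytosolic ribosome. They were 9889 and 7970 CPM in H1504 B and C, beside 7878 to 13423 CPM in the other families. Of those 33 embryos 15 lay above B and 32 above C. Below the range in both siblings were rpl22l1 (28.7 and 13.5 CPM beside 85.9 to 184) and rpl12 (1161 and 954 beside 1260 to 2149). In C alone rpl36 (155 beside 285 to 602) and rpl9 (666 beside 683 to 1327) were. The correlation with miR-34a was above 0 in 10 of the 18.

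A different course was seen in the 2 rows named immunoglobulin superfamily DCC subclass member 3-like, cell surface proteins of the family that includes the netrin receptor DCC. LOC111950271 had 51.7 to 190 CPM in the other families at 150 τs (median 103), and 166, 689 and 1139 CPM in H1504 A, B and C. By 200 τs it had fallen to 4.94 to 10.1 CPM in the other families (median 6.94), and H1504 A, B and C had 8.31, 8.71 and 6.27 CPM, inside that range. LOC111956165 had a median of 9.82 CPM at 150 τs and 0.685 at 200 τs in the other families, with 16.3, 63.4 and 244 CPM in H1504 at 150 τs and 0.971, 1.20 and 0.422 at 200 τs. These mRNAs were the 2 members with the steepest drop between the ages, by 3.87 and 3.66 on the log2 scale, and they did not differ in H1504 at 200 τs from the range of the other families. The row with the symbol igdcc3, no member, was high mainly in C at 150 τs (r = 0.548). H1504 A, B and C had 5.31, 7.84 and 84.4 CPM, beside 1.05 to 6.19 in the other families. At 200 τs its mean was 0.162 CPM, near the floor. The uncharacterised LOC112072678 was high in B and C at 150 τs (125 and 129 CPM beside a median of 10.2) and at 200 τs in B and C (23.6 and 47.7 CPM) but not in A (8.38 CPM), which was the sibling with the second highest miR-34a.

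Of the 10 members with the highest correlation at 150 τs, 5 bear no name. LOC112070227 was the most abundant of all, at 212 CPM in the median of the other families and 698 and 614 CPM in H1504 B and C. LOC111950504 had 80.0 CPM in that median and 488 and 434 CPM in B and C. LOC111952845 had 11.7 CPM in that median and 44.9 and 47.4 in B and C. LOC111956658 and LOC111953665 rose less, to 38.8 and 36.3 CPM from 17.2 and to 33.8 and 41.0 CPM from 19.03.

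**Figure D2:**
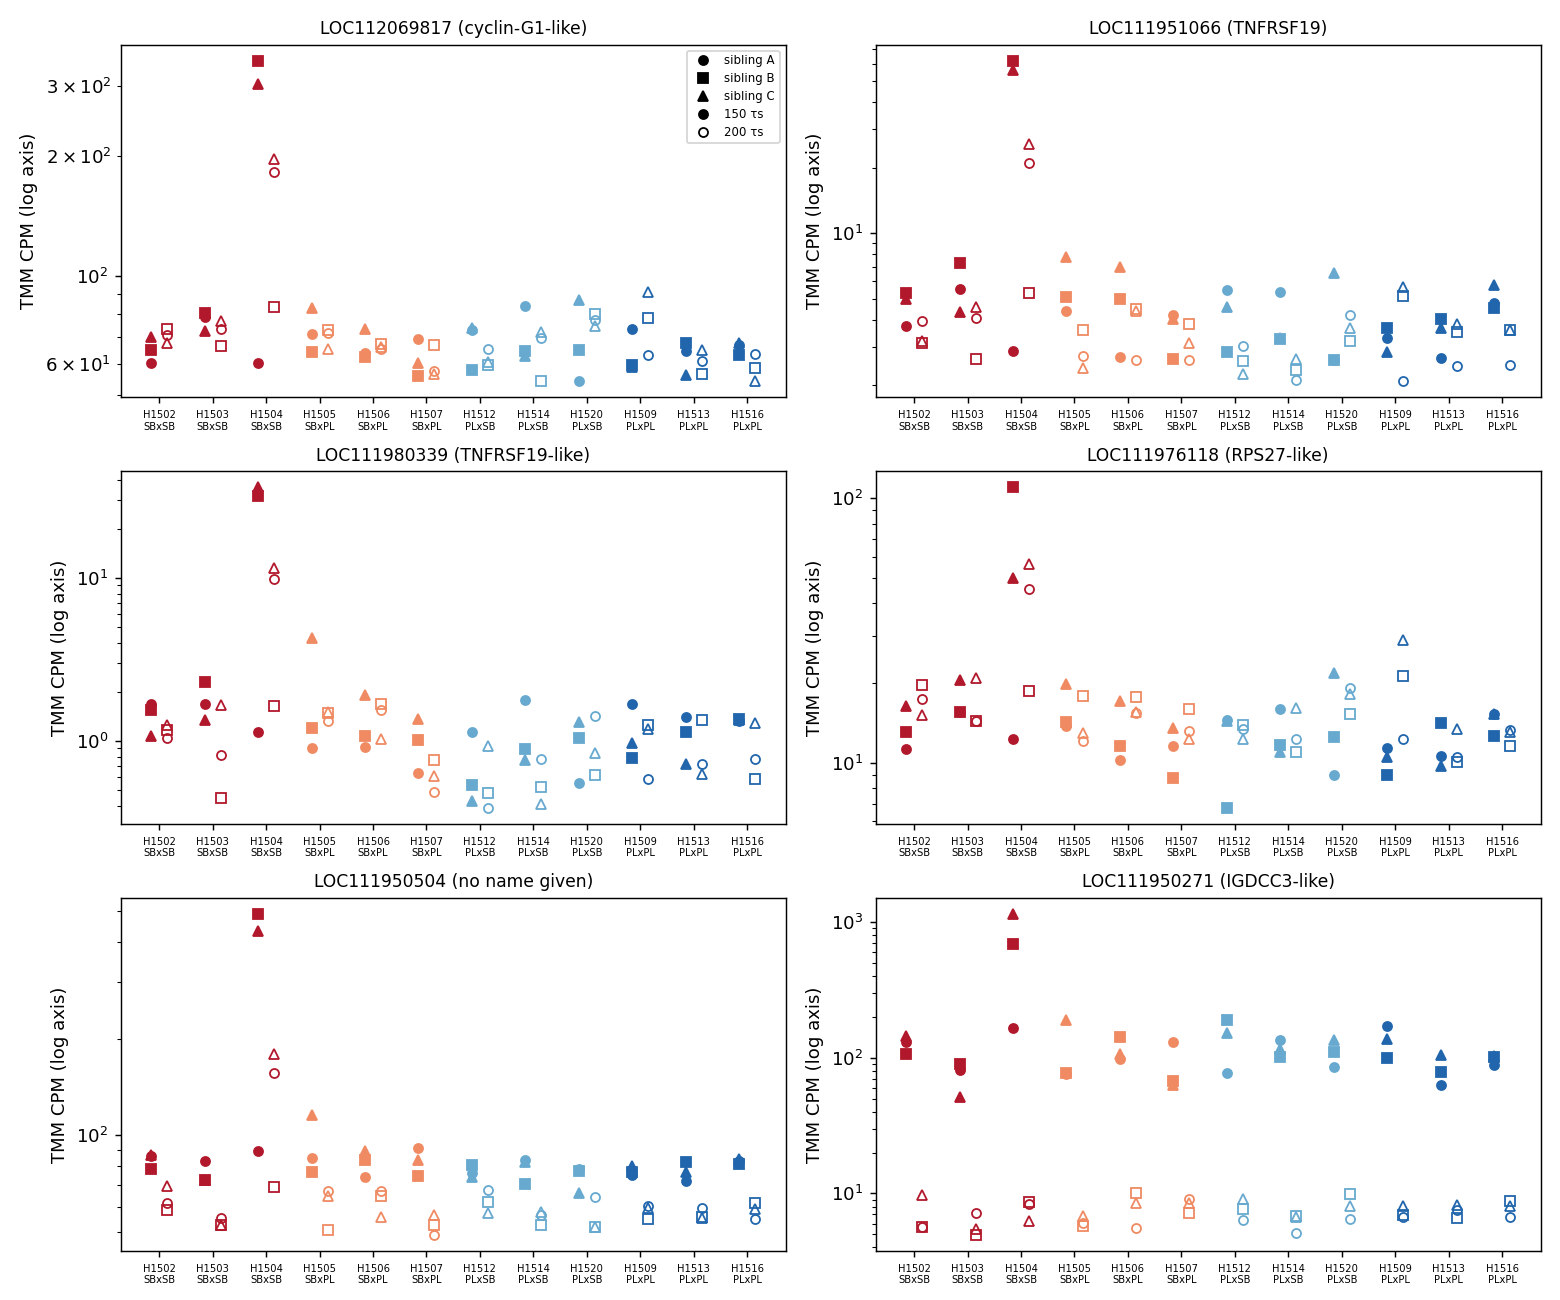
TMM CPM (log axis) of 6 of the mRNAs in each of the 72 embryos by family, with filled symbols for 150 τs, open symbols for 200 τs, shapes for siblings A, B and C and colours for cross-types. In the first 5 panels 2 siblings of H1504 stand above the other families at each age; in the last, the IGDCC3-like row, all families fall between the ages and H1504 is high only among the filled symbols.

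The question at 200 τs was whether the same mRNAs track miR-34a in embryos that had no part in the choice. Of these, 3 are of family H1504, so they are siblings of the embryos that carried the choice. Over all embryos the mRNAs tracked miR-34a in part, and this rested on that family (median r 0.104 without it). The median r of the 100 over the 35 embryos was 0.346, with an interquartile range of 0.186 to 0.506, beside -0.0270 over all eligible rows. The correlation was above 0 in 91 of the 100, and in 46.1% of all eligible rows. Among the 24750 eligible rows the 8 with r of at least 0.7 at 200 τs were all members, and 25 members were among the 100 highest. The other 9 had r below 0, from -0.00256 for LOC111971776 to -0.411 for LOC111970924.

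In the edgeR quasi-likelihood fit of each mRNA's counts on log2(CPM + 0.1) of miR-34a, 27 of the 100 rose with the microRNA at an adjusted p below 0.1 and 0 fell. Over all 39666 rows tested, 0.716% were called in either direction and 0.355% upward. The slope was upward in 92 of the 100 and in 50.3% of all rows. Of the 25 members with the highest r at 150 τs, 17 were called, and of the other 75, 10. The slopes of the called members ran from 0.16 to 1.33 (median 0.46), in log2 mRNA per log2 unit of the microRNA.

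The steepest slopes belonged to the receptors. LOC111980339 rose by 1.33 ± 0.13 (SE; adjusted p = 1.35e-08, edgeR's quasi-likelihood test with Benjamini-Hochberg adjustment over all rows, as for the values that follow) and LOC111951066 by 1.06 ± 0.09 (adjusted p = 1.81e-09). LOC111970063, with no name, rose by 0.85 ± 0.08 (adjusted p = 1.35e-08). In that row H1504 A, B and C had 19.8, 7.77 and 30.1 CPM at 200 τs, all above the other families at 2.93 to 6.84. LOC111950504 rose by 0.50 ± 0.06 (adjusted p = 1.01e-06), LOC111961994 by 0.54 ± 0.06 and LOC111952845 by 0.42 ± 0.05 (both adjusted p = 1.57e-06).

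Cyclin-G1-like LOC112069817 rose by 0.50 ± 0.06 (adjusted p = 3.00e-06), LOC111976118 by 0.62 ± 0.08 (2.30e-05) and LOC111952141 by 0.33 ± 0.07 (0.0207), the last pair being the S27-like rows. The uncharacterised LOC112072678 was also called (0.55 ± 0.11, adjusted p = 0.00809). The IGDCC3-like rows were not: LOC111950271 had a slope of 0.17 ± 0.07 (adjusted p = 0.303) and LOC111956165 of 0.14 ± 0.17 (adjusted p = 0.730). Of the 10 leading members, LOC112070227 and LOC111953665 were the 2 that were not called.

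**Figure D3:**
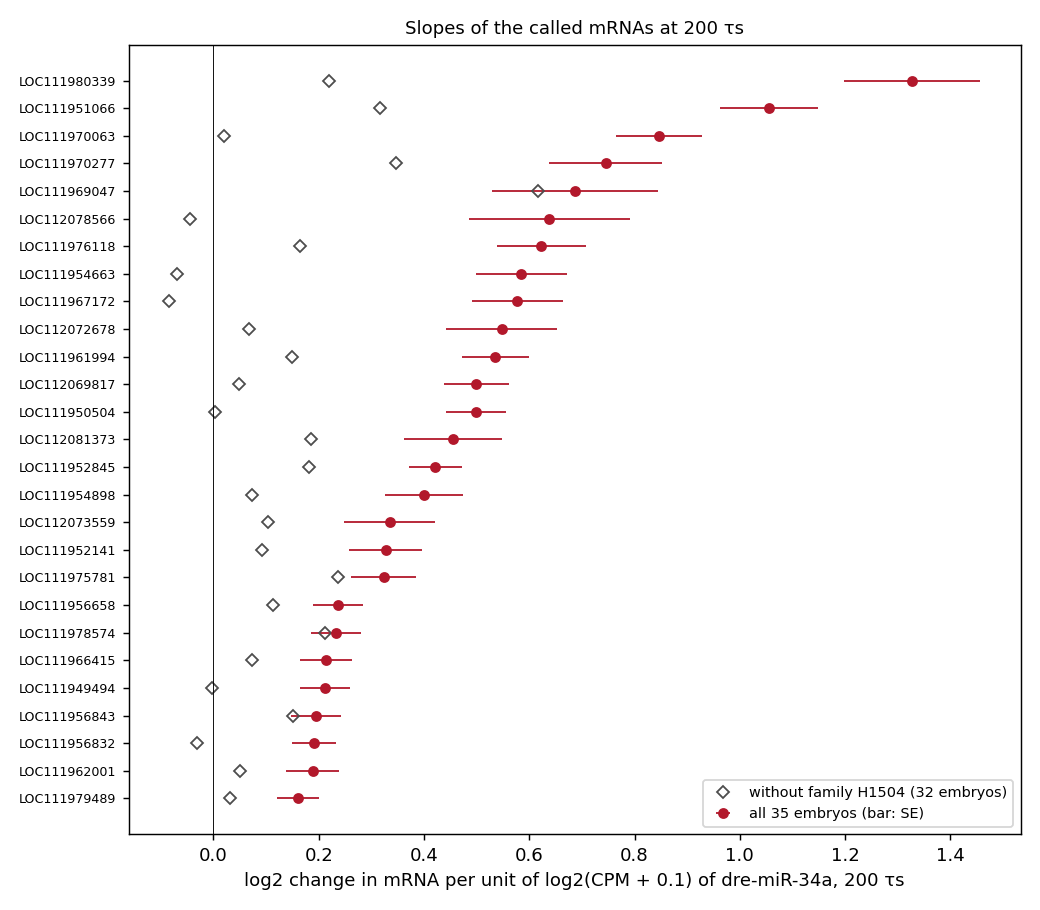
Slopes at 200 τs of the 27 called mRNAs, in log2 mRNA per unit of log2(CPM + 0.1) of dre-miR-34a, with SE bars over 35 embryos (filled circles), and the slope of the same rows over the 32 embryos left without family H1504 (open diamonds). The filled points run from 0.16 to 1.33, and without the family 22 of the 27 are above 0 and most lie near it.

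The calls at 200 τs rested on family H1504 as the choice at 150 τs had. Without that family none of the 100 was called by edgeR over 32 embryos, and 3 rows in the whole table were (0.00758%). Of the 100, 15 had an unadjusted p below 0.05, all upward, beside 8.86% of all rows. The median slope of the 27 was 0.09 without it, and 22 were upward. Of the 27, LOC111952845, LOC111978574 and LOC111975781 then had an unadjusted p below 0.05. The IGDCC3-like LOC111950271, not among the 27, had a slope of 0.42 over these 32 embryos (adjusted p = 0.513, edgeR's quasi-likelihood test). The median r of the 100 was 0.104, beside -0.0172 for all eligible rows. The same held without its individuals A and C alone, where 0 members were called with a median r of 0.134. With family terms in the model, which leaves the differences among siblings, 0 members and 0 rows in all were called, and 21 of the 100 had an unadjusted p below 0.05, all upward, beside 3.59% of all rows. With the siblings' counts summed over each of the 12 families, 11 members were called, beside 0.0706% of all rows. The 3 siblings of a family are not independent of each other, and the p-values over embryos measure the spread between embryos.

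**Figure D4:**
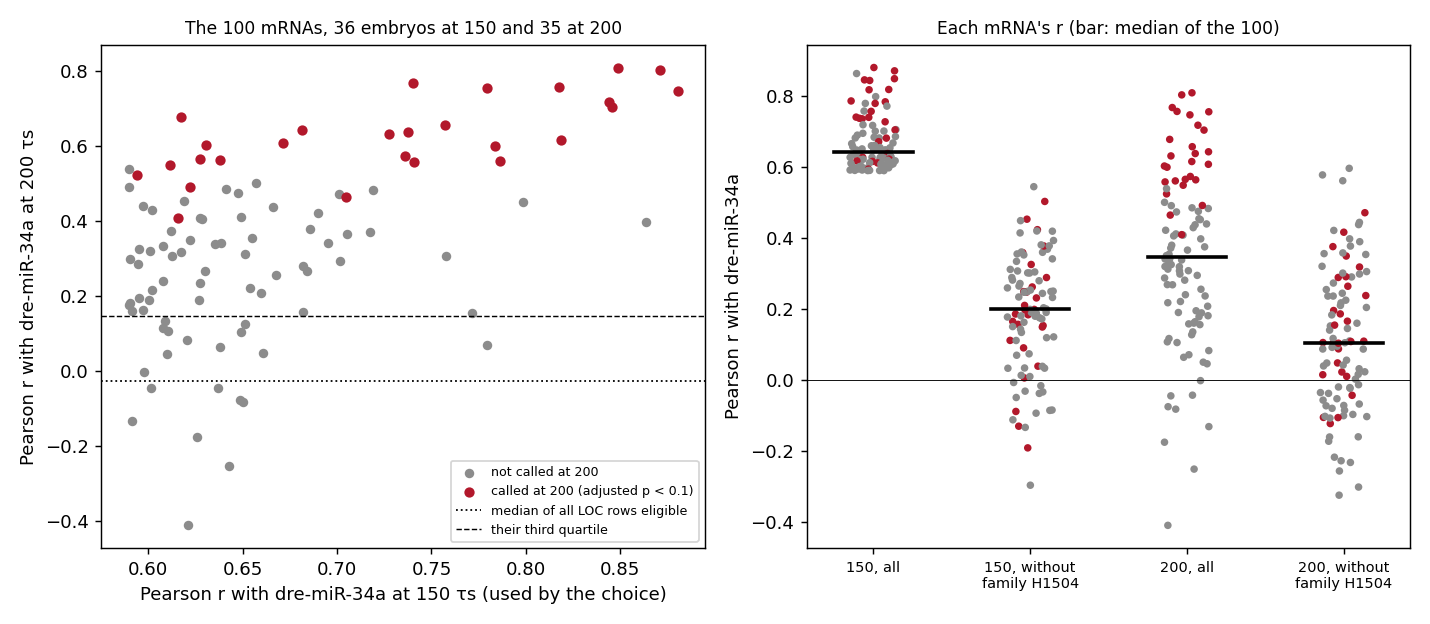
Left, Pearson r of each of the 100 mRNAs with dre-miR-34a at 150 τs (36 embryos) against that at 200 τs (35 embryos), with the 27 called at 200 τs in red and the median (-0.0270) and upper quartile (0.148) of all eligible rows at 200 τs as lines. Right, the r of each mRNA at both ages with all embryos and without family H1504, with the median as a bar (0.642, 0.198, 0.346 and 0.104).

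Among the 12 families, H1504 was the one in which the mRNAs stood highest at both ages. At 150 τs, where the choice fixes this, its mean exceeded that of the other 11 families by a median of 0.62 on the log2 scale. At 200 τs the median difference was 0.35 over the 100 and -0.01 over all eligible rows. H1504 was then the highest of the 12 families in 53 of the 100, beside 15.1% of eligible rows. Its siblings A and C were both above all 33 embryos of the other families in 33 of the 100, beside 3.04% of eligible rows. In the other 11 families the median difference at 200 τs lay between -0.13 (H1513, PLxPL) and 0.06 (H1520, PLxSB).

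**Figure D5:**
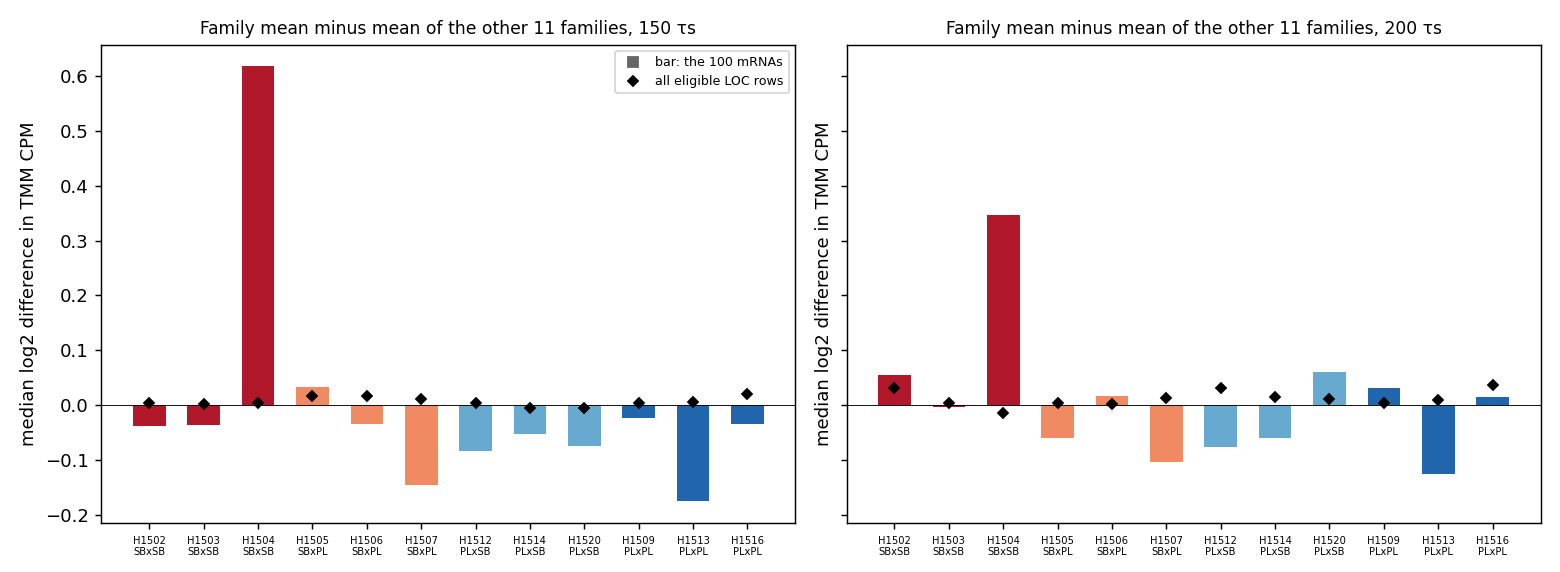
Median over the 100 mRNAs of the log2 difference between a family's mean and the mean of the other 11 families (bars, coloured by cross-type) and the same over all eligible LOC rows (diamonds), at 150 τs (left) and 200 τs (right). H1504 stands at 0.62 and 0.35, and all other bars lie between -0.17 and 0.06.

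In some embryos outside H1504 a part of the mRNAs also stood high. At 150 τs these embryos too entered the correlation behind the choice. The comparisons with all eligible rows at that age in this paragraph are therefore descriptions only. In individual C of family H1505 (SBxPL) at 150 τs, 29 of the 100 were above every other embryo outside H1504, beside 11.7% of eligible rows, and 8 were at least 2-fold above the median of those embryos, beside 2.37%. Its miR-34a was 0.433 CPM (0.268 to 0.663), inside the range of the other families. At 200 τs, again among embryos outside H1504, 25 members were highest in individual B of H1520 (PLxSB), beside 18.5% of eligible rows, and 15 in individual C of H1509 (PLxPL), beside 7.13%. Outside H1504 the members varied together weakly: their mean pairwise correlation over the 33 embryos was 0.119 at 150 τs and 0.0497 at 200 τs, beside 0.00682 and 0.00570 over all eligible rows. With H1504 it was 0.547 and 0.157.

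The expression of age-dependent rows moved with miR-34a in this family. A position was read for each embryo from 1908 rows, no members among them, that differed at least 2-fold between the ages in the other families, with 0 at their median at 150 τs and 1 at 200 τs. At 150 τs the other families ranged from -0.268 to 0.130, and H1504 A, B and C lay at -0.0651, -0.426 and -0.410. At 200 τs the others ranged from 0.857 to 1.12, and H1504 A, B and C lay at 0.680, 0.829 and 0.561. The siblings with raised miR-34a thus had the lowest positions of all embryos of their age. At 200 τs sibling B, with miR-34a inside the range of the other families, also lay below all embryos of those families. In the same direction, 75 of the 100 mRNAs were lower at 200 τs than at 150 τs in the other families, beside 53.8% of eligible rows, and 10 were at least 2-fold lower, beside 0.614%. No member was at least 2-fold higher, beside 4.95% of eligible rows. A fit at 200 τs with the position as a further term was added and had not been planned. The lowest positions and the highest miR-34a fell in the same family, so this fit cannot tell position and miR-34a apart. With that term 21 members were called, all upward, 11 of them among the 27, and 2.16% of all rows were called. These 11 include cyclin-G1-like LOC112069817 (adjusted p = 0.0549), LOC111951066 (0.0166) and LOC111976118 (0.0713), while TNFRSF19-like LOC111980339 had an adjusted p of 0.104, by edgeR's quasi-likelihood test.

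Marker genes of single tissues were few in the rows with a symbol, and some moved with the position. Of 4 cartilage symbols 1 was matched, matn1, a matrix protein of cartilage. It had 0.419 and 0.249 CPM in H1504 B and C at 150 τs, beside 0.385 to 4.88 CPM in the other families, so that C lay below their range and B at its low end. At 200 τs it had 44.2, 189 and 231 CPM in H1504 A, B and C, beside 103 to 248 CPM, so that A alone lay below the range. C, which had the lowest position at that age, was exceeded by only 1 of the 33 embryos of the other families. Of 5 muscle symbols 1 was matched, the fast muscle gene mylpf, with 1134 and 1158 CPM in B and C at 150 τs, beside 961 to 3115. At 200 τs it was lower in all 3 siblings (5112, 5387 and 3254 CPM) than in any other embryo (5625 to 11544). Of 5 neuron symbols 1 was matched, the synaptic gene snap25, which lay below the other families in C at both ages (1.93 CPM beside 2.49 to 5.93 and 6.63 beside 6.75 to 14.2). The 2 of 5 liver and yolk symbols, apob and fabp1, summed to 390 CPM in C at 150 τs, above the other families' 66.1 to 365. The lists for red blood cells, lens, hatching gland and cell division had no matched row. Stress genes were also few. The hypoxia list had 1 row, egln3, which was lower in B and C at 150 τs (9.34 and 6.48 CPM) than in the other families (10.8 to 34.5). The heat shock list had 1 row, hspa14, inside the range of the other families in all 6 embryos of H1504. It was matched only through the stem hspa1 and is not itself a listed gene, so no listed heat shock gene was read. The 2 rows of the unfolded protein response, atf3 and chac1, summed to 3.44 CPM in C at 200 τs, above the other families' 0.886 to 3.23, and lay inside their range in the other 5. The part of these shifts in the result was not tested.

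The other genes of the pathway can be read where the table gives a gene symbol. Of a list of 56 genes or symbol stems set up for the p53 pathway, 18 were matched to 26 rows, 7 of them members. The list was drawn up with earlier results of these data known. It names tnfrsf19 and igdcc3, whose control by p53 was not checked here. The stems also match relatives, such as 5 dusp phosphatase rows. At 200 τs 6 of the 26 rose with miR-34a and 0 fell, beside 0.716% of all rows called in either direction. The 6 were mdm2 and 5 members, the receptor pair, cyclin-G1-like and the S27-like pair. Whether that last pair matches the listed S27-like gene or its paralogue is not known, as stated above. Without H1504 none of the 26 was called by edgeR and 4 had an unadjusted p below 0.05. The correlation with miR-34a at 200 τs was below 0 in 11 of the 26, among them mdm4, btg1, zmat3, tp53inp1 and fbxo22. The median slope of the 26 was 0.07 and that of all rows 0.00. The members in this list entered it through the names that the study gave to genes it selected on these embryos, so the count is not independent evidence.

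mdm2, which encodes the ubiquitin ligase that marks p53 for degradation, is no member because its row carries a symbol. It had 7.68 to 19.3 CPM in the other families at 150 τs (median 13.4) and 11.998, 58.9 and 49.7 CPM in H1504 A, B and C (r = 0.752 over the 36 embryos). At 200 τs it had 8.60 to 14.95 CPM in the others (median 10.6) and 26.2, 11.6 and 25.1 CPM in H1504. Its slope on miR-34a at 200 τs was 0.35 ± 0.07 (adjusted p = 0.0112, edgeR's quasi-likelihood test), and -0.16 ± 0.10 without H1504 (adjusted p = 0.617). With the position between the ages as a further term, mdm2 was not called (adjusted p = 0.589, edgeR's quasi-likelihood test). As stated above, that fit cannot tell position and miR-34a apart, here and for lnx1 below. Its partner mdm4, which inhibits p53, went the other way at 150 τs (r = -0.693), with 25.2, 14.0 and 14.8 CPM in H1504 A, B and C beside 18.9 to 28.8 in the other families. At 200 τs mdm4 had 17.5, 17.4 and 19.4 CPM in H1504, inside the range of 13.4 to 25.6 CPM in the others, and was not called (slope -0.06 ± 0.05, adjusted p = 0.581, edgeR's quasi-likelihood test). Of the 4076 rows with a symbol and at least 1 CPM, 21 reached the lowest r of the members at 150 τs, and lnx1, another ubiquitin ligase, led them (r = 0.816 at 150 τs and 0.795 at 200 τs, slope 0.55 ± 0.06, adjusted p = 1.93e-07 by edgeR). Without H1504 its slope was 0.30 ± 0.11 (adjusted p = 0.522, edgeR), and with the position added lnx1 was called (adjusted p = 0.00803, edgeR).

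Of 27 listed genes whose homologues are known miR-34 targets in mammals, 6 had a row with a symbol: e2f3, myc, ctnnb1, pdgfra, kitlg and fosl1. Rows with a symbol were not eligible as members, so whether any unnamed member matches the list is not known. At 200 τs 1 of the 6 changed with the microRNA. The transcription factor gene fosl1 rose (slope 1.03 ± 0.15, adjusted p = 7.57e-05, edgeR's quasi-likelihood test), from a low level of 0.141 to 1.25 CPM in the other families to 2.18, 1.14 and 2.95 CPM in H1504 A, B and C. Without H1504 its slope was 0.08 ± 0.33 (adjusted p = 0.959, edgeR), and with the position added fosl1 was not called (adjusted p = 0.202, edgeR). The fit with the position has the limit stated above. The slopes of the other 5 lay between -0.05 and 0.10, with adjusted p from 0.559 to 0.825.

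Between cross-types at 200 τs the share of the mRNAs called lay near that of all rows, which is given as a description only. The fit took the spread of each row from the embryos of both ages. That spread includes siblings B and C of H1504 at 150 τs, whose high values carried the choice of the mRNAs. The members' p-values between cross-types, here and below, are therefore not independent of the choice. For the same reason their shares are not strictly comparable with those of all rows. In SBxSB against PLxPL 23 of the 100 differed at an adjusted p below 0.1 by edgeR, 22 of them higher in SBxSB, where 17.6% of all 40311 rows were called. In PLxSB against SBxSB 4 were called, all lower in PLxSB, where 4.3% of all rows were. None was called in SBxPL against PLxPL, PLxSB against PLxPL or SBxPL against SBxSB, where 0.154%, 0.38% and 0.0794% of all rows were. In these 3 comparisons 4, 8 and 38 members had an unadjusted p below 0.05, beside 9.29%, 12.8% and 12.4% of all rows, and DESeq2 called 0 members in each. In SBxSB against PLxPL 37 members had an unadjusted p below 0.05 by edgeR, beside 26.4% of all rows. In PLxSB against SBxSB 28 did, beside 15.5%. At that level the members' share exceeded that of all rows in each comparison with SBxSB.

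The lowest adjusted p between the pure crosses was that of LOC112071039, which had a lowest, median and highest level of 3.21, 4.42 and 5.46 CPM in SBxSB and of 1.60, 2.51 and 3.83 CPM in PLxPL (log2 difference 0.74 ± 0.15 SE, adjusted p = 9.34e-04, edgeR's quasi-likelihood test). LOC112068145 had 13.2, 14.5 and 16.9 CPM against 8.13, 11.3 and 13.8 (0.44 ± 0.11, adjusted p = 0.00539). In both rows the groups overlapped, and both calls stood without H1504 (adjusted p = 0.0152 and 0.0296). LOC111967172 (0.94 ± 0.26, adjusted p = 0.0122) did not stand without that family (adjusted p = 0.221). It had 5.18 to 16.996 CPM in SBxSB and 3.61 to 5.26 CPM in PLxPL.

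In PLxSB against SBxSB the receptor rows LOC111980339 (-2.19 ± 0.59, adjusted p = 0.0268) and LOC111951066 (-1.50 ± 0.43, adjusted p = 0.0404) had the lowest adjusted p by edgeR, followed by LOC112076082 (-0.55 ± 0.16, adjusted p = 0.0441). Without H1504 their adjusted p was 0.463, 0.583 and 0.234. The level of LOC111951066 in the 6 SBxSB embryos of the other families was 2.63 to 4.57 CPM and in the 9 PLxSB embryos 2.12 to 4.20 CPM. Without H1504, 6 members were called between SBxSB and PLxPL, where 6.61% of all rows were, and 8 over all comparisons. With the siblings' counts summed to 3 families per cross-type, 3 members were called, all between SBxSB and PLxPL, where 6.53% of all rows were.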

How the data were processed

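Whole-embryo RNA was sequenced on the DNBSEQ platform for mRNA and on a MiSeq for small RNA. The authors deposited raw counts. The mRNA reads, with adapters removed by the sequencing provider, were aligned to a Salvelinus genome with STAR and counted per gene with featureCounts (use of strand is not given in the sources used here). The small RNA reads were trimmed with Cutadapt and counted per miRBase entry of all species with miRDeep2, so that a read can count under several entries. The 72 normalised small RNA columns were not used. From the counts, CPM with TMM factors was computed in edgeR 4.0.16 (R 4.3.3). The members and lists were chosen with earlier results of these data known. Relations with miR-34a and cross-types were tested by glmQLFit and glmQLFTest of edgeR on every row of at least 10 reads, with Benjamini-Hochberg adjustment and the study's threshold of 0.1. The fit across cross-types had 1 mean for each of the 8 groups of 72 mRNA libraries; that of the small RNA left out the failed library and added the batch. The letter pairs embryos only as the sequencing batch that the labels give it (mean correlation of mRNA deviations 0.00890 for the same letter and -0.00338 for others). DESeq2 1.42.0 was an alternative. The fits were tested on simulated counts drawn independently for each library. These held no family effect, so they do not check p-values that rest on siblings of 1 family. None of the 100 LOC identifiers matched the reference table, which is of another assembly. Genes named are the 10 with the highest r, those at the limit, those matching the pathway list, those with the lowest adjusted p and zebrafish miR-34 entries. Added after their values were seen were gmo-miR-34-3p, lnx1, fosl1, LOC112072678, LOC111971776, LOC111970924, mdm4, LOC111978574, LOC111975781, rpl22l1, rpl12, rpl36 and rpl9.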

Additional observations from a re-analysis of the deposited data

Results flagged for a closer look

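In each group of embryos of one cross-type and age, the highest and lowest value of miR-34a and of the 10 leading mRNAs was compared with its nearest neighbour, in 88 groups; 4 had a gap larger than Dixon's 95% limit, and chance flags about 5% of groups. LOC111952141, an S27-like row, had 17.1 CPM in H1504 C at 200 τs, next to 10.3 CPM in its sibling A. LOC111950504 had 116 CPM in H1505 C at 150 τs, next to 91.0 CPM. LOC112070227 had 154 CPM in H1513 C at 150 τs, below 194 CPM in the next PLxPL embryo. LOC111956658 had 13.5 CPM in H1520 A at 150 τs, below 16.7 CPM in the next PLxSB embryo. miR-34a itself was not among them, since 2 siblings of H1504 were high together.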

How the results depend on the processing

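The median r at 200 τs, 0.346, was 0.217 by Spearman's rho, 0.366 on log2(CPM + 1), 0.348 without TMM factors, 0.315 with cross-type and 0.200 with family means removed, 0.475 over family means, 0.290 with the failed library kept, 0.104 (without H1504) to 0.390 with 1 family left out, and 0.134 without H1504 A and C. The median r at 150 τs was 0.308 by Spearman's rho, 0.557 with family means removed and 0.810 over the means of the 12 families, 0.198 to 0.684 with 1 family left out, lowest without H1504, and 0.210 without H1504 B and C, a choice made after seeing the data. Of the 100, 27 were called on miR-34a at 200 τs, beside 0.716% of all rows. With cross-type terms 15 were called (0.27% of all rows), with family terms 0 (0%) and over family sums 11 (0.0706%). With the failed library kept 13 were called (0.209%), where 0 reads allow up to 45.7 CPM. With 1 family left out the count was 0 (only without H1504, 0.00758%) to 33 (without H1513, 0.897%). Without H1504 A and C, chosen after seeing the data, 0 were called (0.00758%). DESeq2 called 39, the 27 among them, beside 2.87% of the rows it tested. Between cross-types 23 members were called, 3 over sibling sums, and 8 (without H1504) to 41 (without H1503) with 1 family left out. In SBxSB against PLxPL alone these counts were 23, 3, 6 and 37. The rows called there were 7075 of 40311, 2633 of 40311, 2659 of 40219 and 7715 of 40231. The log2 difference of miR-34a between SBxSB and PLxPL ranged from -0.21 without H1504 to 1.19 without H1503, where it passed the threshold (adjusted p = 0.0330), as it did without H1502 (1.08, adjusted p = 0.0850). With the letter as a replicate block 33 members were called on miR-34a, 26 of them among the 27, beside 0.976% of all rows. Between cross-types 24 were called, all of them in SBxSB against PLxPL, where 7367 of 40311 rows were. The median r with the block was 0.636 at 150 τs and 0.363 at 200 τs. Without the block the miR-34a difference was 0.80 (adjusted p = 0.444, edgeR), and miR-34a was called in no comparison with or without it. Low read counts of miR-34a, a median of 11 at 150 τs outside H1504, limit all relations among the other families. The causes were not tested.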
